A study of Mus musculus with 6 samples.

Results

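Ifit1, Ifit2 and Ifit3 encode the best known members of the IFIT family (interferon-induced proteins with tetratricopeptide repeats). Their transcripts were read in macrophages grown from bone marrow, on 3 arrays of vimentin-deficient mice and 3 arrays of wild-type littermates. All probe sets whose platform annotation names a single gene symbol, Ifit1, Ifit2 or Ifit3, were taken. This gave 3 probe sets, 1 per gene, of 45101 on the array, or 3 of the 18193 genes that have a probe set of their own. The genes were chosen because earlier results of these data had shown them among the largest differences between the genotypes. The limma results given below for that difference therefore only describe it and are no independent test.

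IFIT proteins are cytosolic and bind foreign or incompletely capped RNA, which keeps it from being translated. Macrophages hold the genes at a low level at rest and induce them when type I interferon binds its receptor, or directly through the factors IRF3 and IRF7. Induction runs through a complex that holds STAT2 and IRF9 and binds interferon-stimulated response elements in the promoters.

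The vimentin-deficient group and the wild-type group both had a C57BL/6 background, an age of 17 weeks and a chow diet. Marrow of both was grown at normal oxygen with supernatant of the CMG14-12 line as the source of mouse macrophage colony-stimulating factor, and no interferon or other stimulus is named in the labels. The labels do not name the vimentin allele. Each sample was hybridised to its own Affymetrix array and is labelled a biological replicate, and whether these were separate animals or separate cultures is not stated. Values are log2 probe set values as the authors deposited them, so a difference of 1 is a factor of 2. The array medians lay between 7.23 and 7.25. The 3 arrays per genotype limit the precision.

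Vim itself, the check of the labels, was at 8.20, 6.96 and 7.13 in the vimentin-deficient macrophages and at 13.24 to 13.41 in wild-type cells, so all arrays matched their labels. Vimentin-deficient replicate 3 stood apart from the other arrays. Its correlation with them over all probe sets was 0.975 to 0.979, against 0.992 to 0.998 among the remaining 5, so the results are given with and without it. Of 8 macrophage markers, Cd68, Csf1r, Lyz2 and Adgre1 were bright on all arrays, with genotype means from 12.42 to 14.09. Itgam, Fcgr1 and Mertk were dimmer, with genotype means from 9.88 to 10.63. On vimentin-deficient replicate 3, Itgam read 9.60, against 10.30 to 10.62 on the other arrays. Fcgr1 read 11.70 there, against 9.82 to 10.21. The markers of the labelled cell type were thus present, but not at even levels on replicate 3.

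The promoters of the 3 genes are shown because the genes moved together, and because Ifit1 and Ifit3 carry the same pair of elements. They are RefSeq windows of build GRCm38.p6, from 250 bases before to 50 bases after an annotated start site, all on the plus strand, and all 3 genes had an entry. Capitals mark matches to GAAANNGAAA, the spacing of a minimal interferon-stimulated response element, searched on both strands. All matches in these genes lie on the minus strand, so they appear here as TTTCNNTTTC.

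Ifit1, chr19:34640639-34640938: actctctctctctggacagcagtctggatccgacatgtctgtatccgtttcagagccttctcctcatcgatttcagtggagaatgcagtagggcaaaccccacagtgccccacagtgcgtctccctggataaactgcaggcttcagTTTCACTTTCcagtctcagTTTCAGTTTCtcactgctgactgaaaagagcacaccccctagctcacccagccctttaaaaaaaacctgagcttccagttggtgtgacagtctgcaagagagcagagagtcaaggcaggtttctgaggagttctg
Ifit3, chr19:34583279-34583578: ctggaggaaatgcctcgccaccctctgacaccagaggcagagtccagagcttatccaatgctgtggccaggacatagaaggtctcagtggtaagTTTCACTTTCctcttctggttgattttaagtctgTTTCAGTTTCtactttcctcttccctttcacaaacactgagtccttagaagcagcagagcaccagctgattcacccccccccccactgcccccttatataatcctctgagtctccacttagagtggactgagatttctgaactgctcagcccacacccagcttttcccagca
Ifit2, first window, chr19:34550444-34550743: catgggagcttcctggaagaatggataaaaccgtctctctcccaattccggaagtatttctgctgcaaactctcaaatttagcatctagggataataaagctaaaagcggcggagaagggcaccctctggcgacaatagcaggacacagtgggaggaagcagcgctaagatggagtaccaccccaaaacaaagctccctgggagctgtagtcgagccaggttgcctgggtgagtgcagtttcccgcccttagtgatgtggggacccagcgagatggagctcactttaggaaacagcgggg
Ifit2, second window, chr19:34550838-34551137: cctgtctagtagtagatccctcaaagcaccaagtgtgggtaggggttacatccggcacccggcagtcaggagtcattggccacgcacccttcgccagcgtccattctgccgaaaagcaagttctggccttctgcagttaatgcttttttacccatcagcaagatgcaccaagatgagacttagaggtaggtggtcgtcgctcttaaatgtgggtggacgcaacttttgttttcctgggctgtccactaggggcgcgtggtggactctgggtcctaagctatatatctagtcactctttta

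Ifit1 and Ifit3 each held the sequence TTTCACTTTC followed downstream by TTTCAGTTTC. Counted from the start site, they lie at -104 to -95 and -85 to -76 in Ifit1, and at -156 to -147 and -122 to -113 in Ifit3. Of all genes with a window, 3.99% held such a match (1079 of 27025). Neither window of Ifit2 held these letters, which says nothing of elements outside the windows. The gamma-activated site TTCNNNGAA, the same on both strands and searched separately from the first motif, was present in 1 of the 3 genes, in the first window of Ifit2, against 9.55% of all genes.

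Ifit1 encodes the IFIT protein that holds capped RNA whose first nucleotide lacks ribose methylation, a mark that host messages carry. It read 9.20, 9.40 and 10.65 on vimentin-deficient replicates 1, 2 and 3, and 7.55, 7.83 and 7.69 on wild-type replicates 1, 2 and 3. The groups did not overlap: the lowest vimentin-deficient array lay 1.37 log2 units, a factor of 2.58, above the highest wild-type array. The means differed by 2.06 log2 units (SE 0.36), a factor of 4.17.

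Ifit2 encodes an RNA-binding protein known for restricting viruses in the mouse brain and for a link to cell death. It read 10.24, 10.42 and 11.91 on the vimentin-deficient arrays and 8.46, 8.84 and 8.67 on the wild-type arrays, in replicate order. Again all 3 vimentin-deficient arrays lay above all 3 wild-type arrays, with a gap of 1.40 log2 units. The means differed by 2.20 log2 units (SE 0.42), a factor of 4.60.

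Ifit3 encodes a family member that, in human cells, binds and stabilises IFIT1. It read 9.88, 10.23 and 11.93 on the vimentin-deficient arrays and 8.23, 8.79 and 8.61 on the wild-type arrays. The groups did not overlap here either, with a gap of 1.09 log2 units. The means differed by 2.13 log2 units (SE 0.50), a factor of 4.39, and of the 3 genes it had the widest spread within both genotypes. In bulk RNA, a change in every cell and a change in the share of cells with the transcript cannot be told apart.

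**Figure D1:**
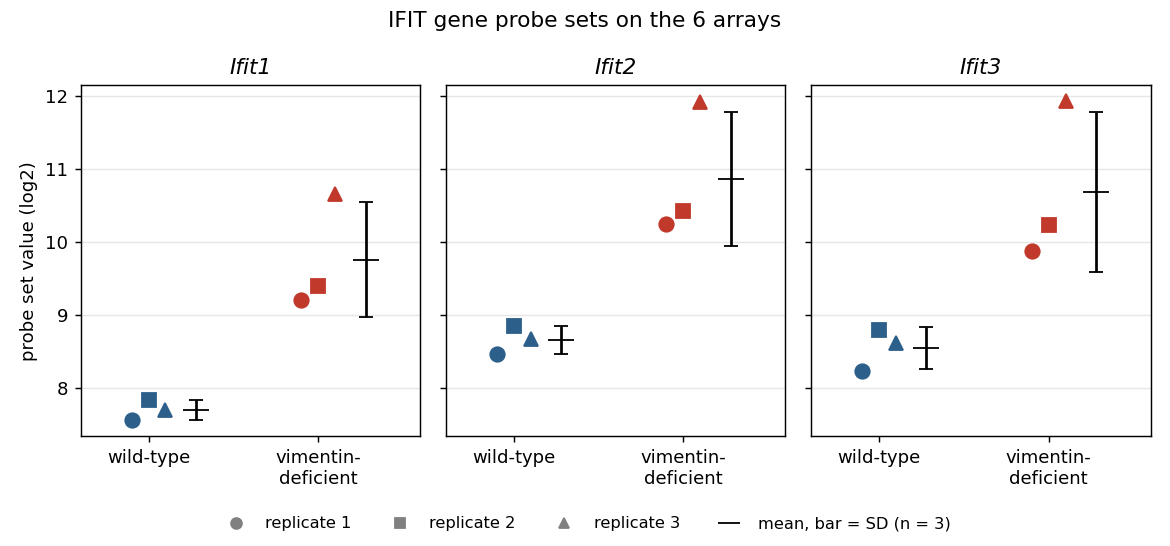
Log2 probe set values (y axis) of Ifit1, Ifit2 and Ifit3 on each array, wild-type in blue and vimentin-deficient in red, with the replicate number given by the symbol and the mean with its SD (n = 3) in black. For each gene the 3 vimentin-deficient arrays lie above the 3 wild-type arrays, and vimentin-deficient replicate 3 is the highest.

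Of the 3 genes, 3 had every vimentin-deficient array above every wild-type array, and among all 13445 tested genes 5.32% did, while 10.1% had every vimentin-deficient array below. By limma with Benjamini-Hochberg adjustment over all tested genes, 0 of the 3 were called higher with 6 arrays, where 0% of tested genes were called higher and 0.0223% lower. All 3 had an unadjusted limma p under 0.05 with the higher mean in vimentin-deficient cells, as did 405 of all tested genes. Without vimentin-deficient replicate 3, limma called 3 of the 3 higher, against 1.31% of all tested genes (176 of 13445), and 1.03% were called lower. Since the genes were chosen on this contrast, these counts only describe them.

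The size of the difference was not set by replicate 3 alone. Against the wild-type mean, replicate 1 was 1.51, 1.59 and 1.33 log2 units higher for Ifit1, Ifit2 and Ifit3. Replicate 2 was 1.71, 1.77 and 1.68 higher, close to replicate 1. Replicate 3 was 2.96, 3.25 and 3.38 higher, factors of 7.79, 9.53 and 10.4, and so well above its 2 companions. Without replicate 3 the mean differences were 1.61 (SE 0.09), 1.68 (SE 0.11) and 1.51 (SE 0.15) log2 units, factors of 3.05, 3.20 and 2.84.

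Ranked by the mean log2 difference over 6 arrays, Ifit2, Ifit3 and Ifit1 stood at places 4, 5 and 6 of 13445 tested genes. Above them were Slco4a1, an organic anion transporter gene (2.48), Fxyd2, a regulator of the sodium pump (2.39), and Ly6e, an interferon-induced surface protein gene (2.34). Usp18, which encodes a brake on interferon receptor signalling, followed at place 7 with 1.99. Without replicate 3 the places were 3 for Ifit2, 5 for Ifit1 and 6 for Ifit3, while Fxyd2 fell back to a log2 difference of 1.03. The median over all tested genes was -0.02 with 6 arrays and -0.01 without replicate 3. Only 6 tested genes were over 2 log2 units higher in vimentin-deficient macrophages, and the 3 IFIT genes are among those 6.

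**Figure D2:**
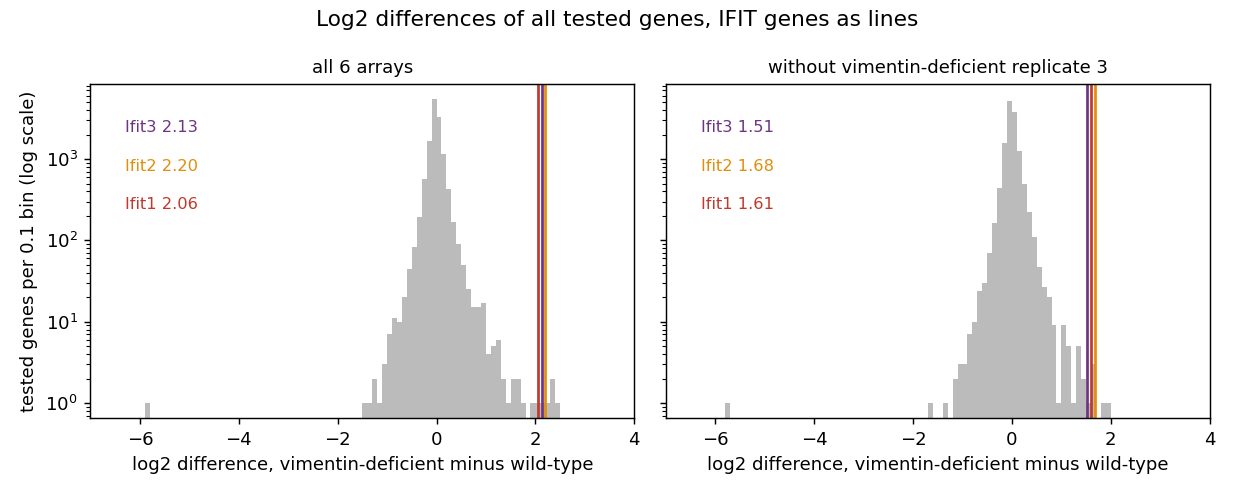
Number of tested genes (y axis, log scale) by log2 difference of vimentin-deficient minus wild-type macrophages (x axis, bins of 0.1), with all 6 arrays on the left and without vimentin-deficient replicate 3 on the right. The lines mark Ifit1, Ifit2 and Ifit3, which lie between 2.06 and 2.20 on the left and between 1.51 and 1.68 on the right, in the upper tail of both distributions.

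The mean differences of the 3 genes lay within 0.14 log2 units of each other, and their order was not tested. Ifit2 stood farther above its wild-type mean than Ifit1 on each of the 3 vimentin-deficient arrays, while Ifit3 stood below both on replicates 1 and 2 and above both on replicate 3. On a single array the 3 genes came apart most on replicate 3, where Ifit1 and Ifit3 differed by 0.42 log2 units in their distance from the wild-type mean. Each gene has its own probe set, so their levels are not compared with each other.

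The 3 genes followed each other array by array within the genotypes as well. All 3 ranked the arrays in the same order: vimentin-deficient replicates 3, 2 and 1, then wild-type replicates 2, 3 and 1. Among the other 13442 tested genes, 49 (0.364%) had that order, and 16 of those belong to the 54 tested interferon target genes described below. Over the 6 arrays, Pearson's r was 0.999 for Ifit1 with Ifit2, 0.991 for Ifit1 with Ifit3 and 0.995 for Ifit2 with Ifit3. After each array was set against its genotype mean, r was still 0.999, 0.996 and 0.997. These points share arrays, and replicate 3 carries much of the second set of values.

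The wild-type arrays differed among themselves in these genes more than in most others. The SD over the 3 wild-type arrays was 0.14 for Ifit1, 0.19 for Ifit2 and 0.28 for Ifit3, higher than in 87.9% to 98.5% of tested genes. From the lowest to the highest wild-type array the values spanned factors of 1.22, 1.30 and 1.47. The same range over the vimentin-deficient arrays was a factor of 2.74, 3.17 and 4.14, and the SDs there were higher than in 98.6% to 99.4% of tested genes. The IFIT transcripts thus varied between wild-type samples too, but the wild-type range was smaller than the gap between the genotypes for all 3 genes.

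The 3 genes stand in a cluster on chromosome 19 with 3 further IFIT genes, and the values differed within that cluster. Ifit1bl1, a less studied relative, read 7.26, 7.55 and 7.73 on the vimentin-deficient arrays and 6.84, 6.99 and 6.94 on the wild-type arrays. Its mean difference of 0.59 log2 units (SE 0.12, limma adjusted p = 0.269) did not pass the threshold with 6 arrays, although its groups did not overlap. Without replicate 3 it rose by 0.48 log2 units (SE 0.08, limma adjusted p = 0.0103).

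Ifit1bl2 gave little signal on any array. Its 2 probe sets read between 6.57 and 6.68 and between 6.03 and 6.25, below the filter of 6.93, so it was not tested. This gene runs in the opposite direction to Ifit1, and 1 of its 2 promoter windows shares 245 of 300 bases with the Ifit1 window printed above. The same pair of elements thus lies upstream of both, from 70 to 42 bases before the start site of Ifit1bl2 in that window. Ifit3b has no probe set that names it alone and was not analysed here. Its promoter window matched that of Ifit3 at 258 of 260 aligned bases. Whether the Ifit3 probe set also reads transcripts of this near-copy was not tested, so the Ifit3 values are uncertain in that respect.

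Outside the cluster, the differences of the neighbours were below those of Ifit1, Ifit2 and Ifit3. On the side of Ifit2, Lipa, the lysosomal acid lipase gene, read 13.16 ± 0.10 on the vimentin-deficient and 13.23 ± 0.05 on the wild-type arrays (SD, n = 3). Ch25h, which makes an antiviral oxysterol and is itself induced by interferon, did not follow the IFIT genes. It read 7.96, 7.83 and 7.07 on the vimentin-deficient arrays and 7.33, 7.09 and 6.97 on the wild-type arrays, so replicate 3, the highest for the IFIT genes, was the lowest of its genotype here. Ch25h rose by 0.76 log2 units (SE 0.09, limma adjusted p = 0.00183) without that array and had 0.49 (SE 0.23, limma adjusted p = 0.657) with it. Fas and Acta2, farther out, had differences of -0.14 (SE 0.07) and -0.05 (SE 0.08).

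On the side of Ifit1, the transporter gene Slc16a12, next to Ifit1, had a log2 difference of 0.49 (SE 0.14, limma adjusted p = 0.428). All 3 of its vimentin-deficient arrays lay above the wild-type arrays, the lowest at 8.66 against 8.57. The next neighbour, Pank1, a kinase gene of coenzyme A synthesis, had 0.00 (SE 0.07), and the serotonin receptor gene Htr7 had -0.03 (SE 0.06). The mitotic motor gene Kif20b had -0.17 (SE 0.40), with replicate 3 at 6.89 and the other 5 arrays between 7.85 and 8.52. With 6 arrays, 0 of these 8 neighbours passed the threshold in limma, and without replicate 3 Ch25h was the 1 that did.

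**Figure D3:**
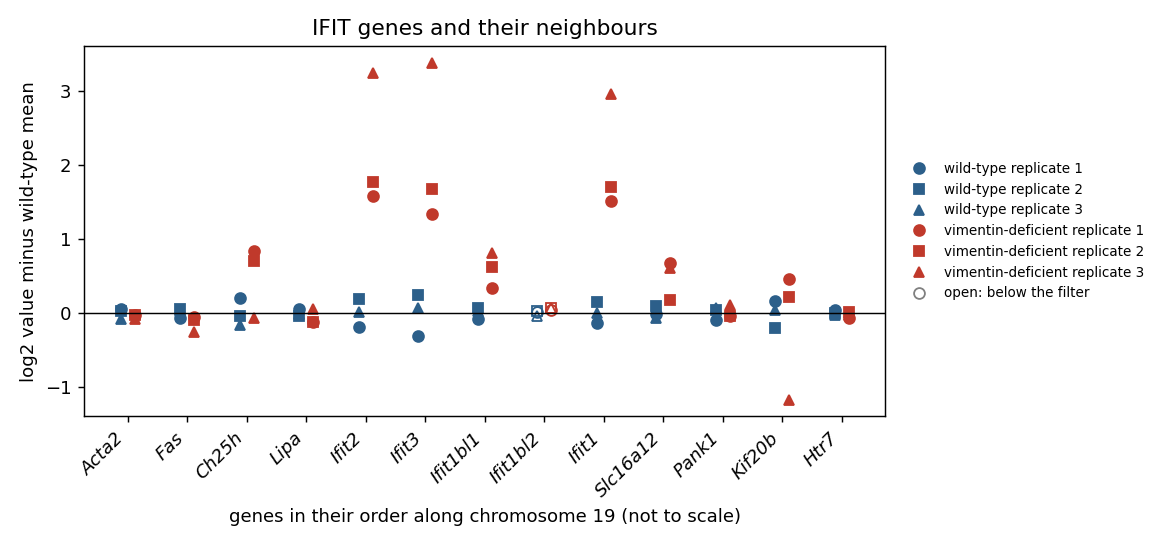
Log2 value minus the wild-type mean (y axis) on each array for the IFIT genes and the 4 nearest tested, named protein-coding genes on each side, in their order along chromosome 19 (x axis, not to scale). Ifit1, Ifit2 and Ifit3 stand between 1.33 and 3.38 on the vimentin-deficient arrays, Ifit1bl1 stands lower, and Ifit1bl2 (open symbols, below the filter) and most neighbours lie near 0.

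Of 20 type I and III interferon genes, 9 had a probe set of their own and 3 passed the filter on low values. All 9 were type I genes, so type III interferons were not read. Ifnb1, the type I interferon that macrophages make first, was below the filter on every array, between 6.19 and 6.40. Ifna1, Ifna2 and Ifna9 passed the filter with log2 differences of 0.00 (SE 0.08), 0.03 (SE 0.07) and -0.07 (SE 0.07), and 0 of the 3 were called by limma or had an unadjusted p under 0.05, with or without replicate 3. Ifna9 read between 7.89 and 8.10 on the 6 arrays. These values do not show whether a transcript was present.

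The receptors were not higher where the IFIT genes were. All 6 receptor genes on the list were tested and 6 of 6 had the lower mean in vimentin-deficient cells. Only 39.6% of all tested genes had the higher mean there, so lower means were the more common ones. The median log2 difference of the 6 receptor genes was -0.14, and -0.16 without replicate 3, against -0.02 over all tested genes. Limma called 0 of 6 with 6 arrays, where 2 had an unadjusted p under 0.05, as did 1072 of all 13445 tested genes. Without replicate 3 it called 0 of 6, where 3 had an unadjusted p under 0.05. The share of all tested genes with such a p was not counted in that fit. The subunits of the type I receptor, Ifnar1 and Ifnar2, had -0.10 (SE 0.10, limma adjusted p = 0.833) and -0.23 (SE 0.09, limma adjusted p = 0.593). On single arrays, Ifnar2 read 10.53, 10.57 and 10.68 in vimentin-deficient and 10.70, 10.88 and 10.87 in wild-type macrophages. The interferon gamma receptor genes Ifngr1 and Ifngr2 had -0.20 (SE 0.15) and -0.09 (SE 0.11). Il10rb, a subunit shared with the interleukin-10 receptor, had -0.18 (SE 0.07), and Ifnlr1 had -0.01 (SE 0.05).

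Of the signal chain, 20 genes were tested and 16 had higher means, against 39.6% of all tested genes, with a median of 0.10. Limma called 0 of them with 6 arrays, where 5 had an unadjusted p under 0.05. Irf7, the factor that amplifies the type I response, read 9.33, 9.41 and 10.16 on the vimentin-deficient arrays and 8.12, 8.35 and 8.33 on the wild-type arrays. Its log2 difference was 1.37 (SE 0.22, limma adjusted p = 0.179), and 1.11 (SE 0.09, limma adjusted p = 0.000127) without replicate 3. Tlr3, a receptor for double-stranded RNA, had 0.28 (SE 0.05, limma adjusted p = 0.249) with no overlap between the groups. Stat2 and Irf9, both parts of the complex that binds the response elements, had 0.80 (SE 0.20, limma adjusted p = 0.362) and 0.48 (SE 0.15, limma adjusted p = 0.483). Without replicate 3, Irf7 and Stat2 were the 2 genes of this list called higher, 9 of 20 had higher means and the median was -0.02.

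The list of other interferon target genes was put together with earlier results of these data known. The list holds 62 genes beside Ifit1, Ifit2 and Ifit3, of which 56 were on the array and 54 were tested, Ifit1bl1 among them. The vimentin-deficient mean was the higher one for 54 of 54, against 39.6% of all tested genes, and the median log2 difference was 0.74. For 52 every vimentin-deficient array lay above every wild-type array, against 5.32% of all tested genes. Ifi203 and Trim25 were the exceptions. With 6 arrays limma called 0 of the 54, where 49 had an unadjusted p under 0.05. Of all 13445 tested genes, 1072 had such a p, 405 of them with the higher mean. Without replicate 3 limma called 38 of the 54 higher and 0 lower, against 1.31% and 1.03% of all tested genes. The median of the 54 was then 0.49, and Trim25 (-0.12) was lower. The smallest p belonged to Ifi35 (0.88, SE 0.09, limma adjusted p = 0.124) and Oas1a (0.96, SE 0.11, limma adjusted p = 0.138). Averaged over the 54 genes, vimentin-deficient replicates 1, 2 and 3 stood 0.61, 0.63 and 1.34 log2 units over the wild-type mean. Averaged over the 3 IFIT genes, they stood 1.48, 1.72 and 3.20 over it. With 6 arrays Ly6e was the only one of the 54 with a larger mean difference than the IFIT genes. Without replicate 3, Ly6e (1.95) was above all 3 and Usp18 (1.67) above Ifit1 and Ifit3.

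The element seen in the Ifit1 and Ifit3 promoters was common among these genes. Of the 39 tested interferon target genes with a window, 20 (51.3%) held a GAAANNGAAA match, against 3.57% of all tested genes with a window. For the gamma-activated site the shares were 17.9% and 8.11%.

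**Figure D4:**
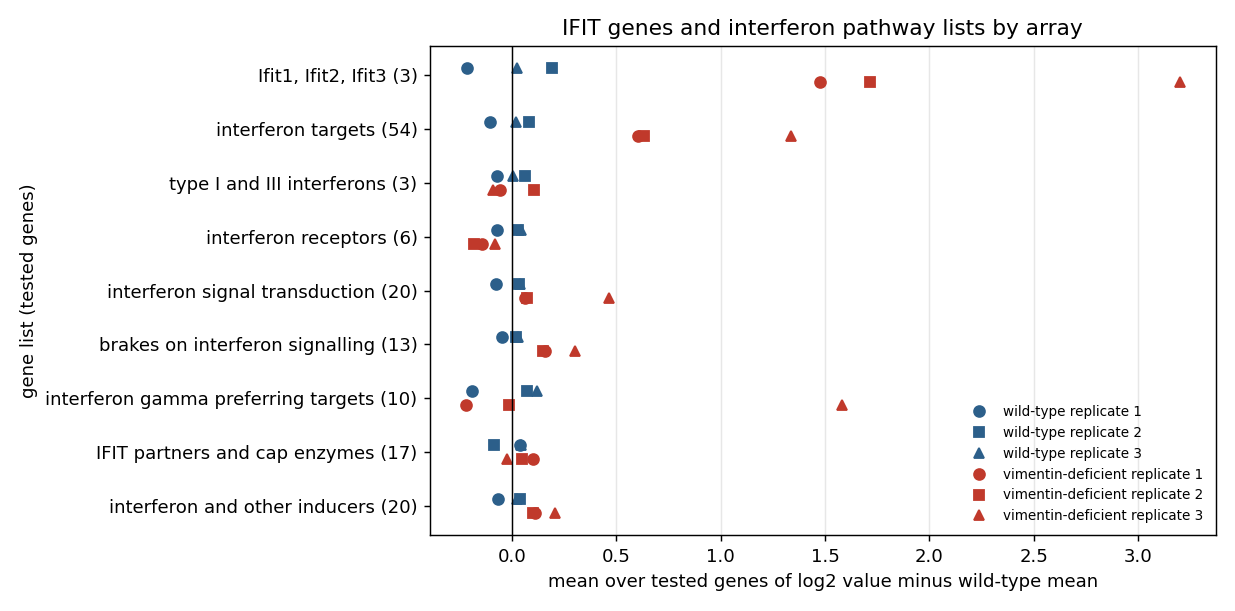
Mean over the tested genes of a list of the log2 value minus the wild-type mean (x axis) on each array, for the 3 IFIT genes and 8 interferon pathway lists (y axis, number of tested genes in brackets). The IFIT genes lie at 1.48, 1.72 and 3.20 on the vimentin-deficient arrays and the 54 interferon targets at 0.61, 0.63 and 1.34, while receptors stay between -0.18 and -0.08.

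The genes listed here as induced more by interferon gamma than by type I interferon did not, on average, share the pattern on replicates 1 and 2. Interferon-inducible GTPase genes such as Irgm1, Igtp and Ifi47 were on the interferon target list instead. The values below therefore do not cover them. The mean of the 10 tested genes was -0.22 and -0.01 on those arrays and 1.58 on replicate 3, where the MHC class II genes H2-Aa, H2-Ab1, H2-Eb1 and Cd74 were high. H2-Eb1, for example, read 12.04 on that array and between 7.70 and 8.26 on the other 5. The median of this list was 0.12 with 6 arrays and -0.15 without replicate 3. Limma called 0 genes either way, where 0 and 3 had an unadjusted p under 0.05. Without replicate 3 the share of all tested genes with such a p was not counted. The part of the listed genes in the IFIT values of replicate 3 was not tested. With 6 arrays the smallest p on this list belonged to Socs1 (0.06, SE 0.05) and H2-Eb1 (1.26, SE 1.06).

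The brakes on interferon signalling had a median of 0.04 over 13 tested genes, and 0.01 without replicate 3. Limma called 0 with 6 arrays, where 2 had an unadjusted p under 0.05. Usp18 read 10.06, 9.96 and 10.98 on the vimentin-deficient arrays and 8.13, 8.64 and 8.26 on the wild-type arrays. It was the only gene of this list called higher by limma without replicate 3 (1.67, SE 0.13, limma adjusted p = 0.000127). Adar, an RNA-editing enzyme with an interferon-induced form, had 0.49 (SE 0.20, limma adjusted p = 0.608) with 6 arrays.

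Genes whose products meet IFIT proteins at the cap or the ribosome did not pass the test. The share of all tested genes with higher means was 39.6%. Of 17 tested genes for eIF3 subunits, eIF4 factors and cap enzymes, 8 had higher and 9 lower means, with a median of -0.01. Without replicate 3, 15 of 17 had higher means and the median was 0.06. Limma called 0 without replicate 3, where 2 had an unadjusted p under 0.05, a share not counted over all tested genes in that fit. It also called 0 with 6 arrays, where 0 had such a p. The smallest p belonged to Cmtr1, which adds the cap methylation that Ifit1 senses (0.24, SE 0.11, limma adjusted p = 0.653), and Rnmt, the cap guanine methyltransferase (0.16, SE 0.08, limma adjusted p = 0.677). Of 20 tested genes that interferon induces but that are also known for other regulators, 14 had higher means, with a median of 0.13, and limma called 0 with 6 arrays, where 3 had an unadjusted p under 0.05. There the smallest p belonged to Cd86, a costimulatory ligand (0.59, SE 0.08, limma adjusted p = 0.166), and Psmb8, an immunoproteasome subunit (0.32, SE 0.08, limma adjusted p = 0.370). Without replicate 3, 2 genes of that list were called higher, Cd86 (0.50, SE 0.06, limma adjusted p = 0.00156) and Ch25h, and the median was 0.07.

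The genes most like the IFIT genes across the arrays were mostly on the interferon target list. Likeness was Pearson's r over the 6 arrays with the mean of the 3 IFIT genes, each centred on its wild-type mean and scaled by its range. The 10 highest named genes were Rsad2 (0.999), Ddx58 (0.997), Samd9l (0.997), Epsti1 (0.996), Trim30a (0.996), Oasl2 (0.996), Mndal (0.996), Irf7 (0.995), Irgm1 (0.994) and Zbp1 (0.994). Rsad2 encodes viperin, an antiviral enzyme, Ddx58 the RNA sensor RIG-I, and Zbp1 a sensor of Z-form nucleic acid. Of the 10, 8 were on the interferon target list, and 5 of the 9 with a promoter window held a GAAANNGAAA match. In all, 107 other tested genes had an r over 0.95, clones without a gene name left out, among them 38 of the 54 interferon targets. These correlations describe 6 points that share the genotype contrast and the separate array, and carry no test.

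**Figure D5:**
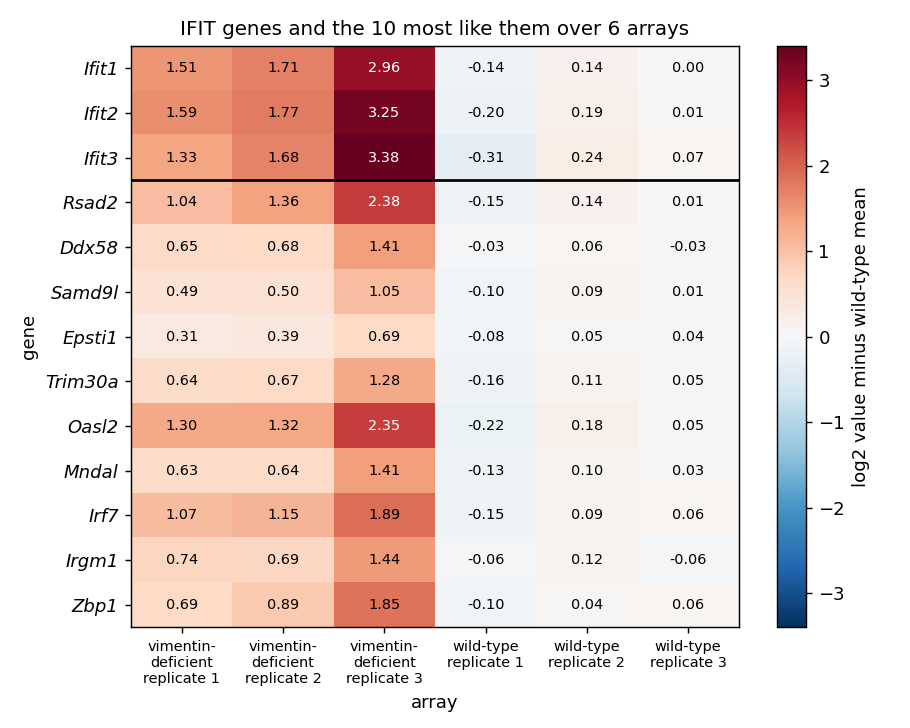
Log2 value minus the wild-type mean for Ifit1, Ifit2, Ifit3 (above the line) and the 10 genes most like them (rows) on the 6 arrays (columns), with the colour scale in log2 units. All 13 genes are highest on vimentin-deficient replicate 3, from 0.69 for Epsti1 to 3.38 for Ifit3, and wild-type replicate 1 is the lowest array for all except Irgm1.

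Rsad2, first by likeness, read 10.75 ± 0.70 on the vimentin-deficient and 9.15 ± 0.15 on the wild-type arrays (SD, n = 3), with no overlap, and its log2 difference was 1.59 (SE 0.32, limma adjusted p = 0.272). Without replicate 3 it rose by 1.20 log2 units (SE 0.12, limma adjusted p = 0.000424). The smallest difference among the 10 was that of Epsti1, at 0.46 (SE 0.11, limma adjusted p = 0.358). Thus genes with nearly the same profile over the arrays differed in size by more than 1 log2 unit.

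Markers of other cell types of the marrow were read on the same arrays. Of 8 markers of plasmacytoid dendritic cells, the cells known for making interferon in large amounts, 7 were on the array, 4 were tested and limma called 0, where 0 had an unadjusted p under 0.05. Siglech, a defining marker of them, was below the filter, as were Lag3 and Ly6d. The 4 tested ones were above it, with Tcf4 at 9.74 to 10.67 and highest on replicate 3, Klk1 at 8.90 to 9.09, Cox6a2 at 8.41 to 9.08 and Ccr9 at 7.88 to 7.99. Their part in the IFIT values was not tested. The summed linear level of the list, in log2 units, was 11.29 to 11.59 on the vimentin-deficient and 11.20 to 11.40 on the wild-type arrays, so the groups overlapped. Those of neutrophils ran from 9.97 to 10.12 and from 10.08 to 10.13, and those of B cells from 9.61 to 9.74 and from 9.67 to 9.70. On the lists of conventional dendritic cells, T and NK cells, fibroblasts, endothelial cells and erythroid cells, limma also called 0 with 6 arrays, where 1 erythroid marker had an unadjusted p under 0.05. All 5 mast cell markers were below the filter and 0 were tested. Without replicate 3 the called markers of other cell types were Kdr (0.33), higher, and Epor (-0.32), lower. Of the 8 macrophage markers, limma called 0 with 6 arrays, where 2 had an unadjusted p under 0.05. Without replicate 3 it called 1, Cd14, where 5 had an unadjusted p under 0.05. The share of all tested genes with such a p was not counted in that fit, so the 5 cannot be set against it. Cd14, the co-receptor for lipopolysaccharide, had 0.75 (SE 0.14, limma adjusted p = 0.249) with 6 arrays and an r of 0.982 with the IFIT genes. Without replicate 3, Cd14 had 0.59 (limma adjusted p = 0.00201). Its part in the IFIT difference was not tested. The 3′ minus 5′ difference of the Gapdh control probe sets lay between -0.02 and 0.01 on the 6 arrays and that of beta-actin between 0.18 and 0.23, so these measures of RNA quality did not separate replicate 3.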

How the data were processed

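Total RNA was labelled as biotinylated cRNA and hybridised to Affymetrix mouse arrays, 1 per sample, per the labels. The authors deposited log2 probe set values. The summary method, the normalization and the build are not given in the sources used here, and the log2 scale was read from the values. Array medians lay within 0.1, so values were used as deposited. Background is not separable from them, so differences of dim genes can be compressed.

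Of 45101 probe sets, 64 were controls, 34945 named 1 symbol, 932 several and 9160 none. Symbols of 34741 were updated by Entrez ID (GRCm38.p6 table). The brightest probe set stood for a gene. The 13445 of 18193 genes with a mean at or above the 40th percentile of non-control probe sets, 6.93, entered limma 3.58.1 (R 4.3.3; lmFit and then eBayes with trend), with Benjamini-Hochberg adjustment at 0.05 and no covariates. SEs are limma's moderated ones. SDs are between arrays. The p-values set each difference against the spread between these samples, which limma moderates with that of all tested genes. The fit was tested on simulated data.

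The members and all gene lists were chosen with earlier results of these data known. Named were, by rule, the IFIT genes, the 10 genes most like them (5 on deviations from genotype means), 4 neighbours on each side, receptors, Stat2, Irf9, Irf7, Vim and the 2 smallest p per remaining pathway list. Tlr3, Slco4a1, Fxyd2, Ly6e, Usp18, the MHC class II genes, Cd14 and other marker genes were named after their values were seen. Alternatives covered scaling, filter, probe set rule, variance model, array weights, replicate block and leaving out each array.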

Additional observations from a re-analysis of the deposited data

How the results depend on the processing

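The log2 differences of Ifit1, Ifit2 and Ifit3 stayed positive under all 16 alternatives for each gene, but many of these could not change them. Each gene has 1 probe set, and the filter, probe set rule, variance model and replicate block left the mean difference as it was. Leaving out 1 array could not change the sign, since the groups did not overlap. It also could not move a difference by 1 pooled SD between arrays (0.57, 0.66 and 0.80), so that measure decides nothing. Leaving out 1 array at a time gave 1.61 to 2.33, 1.68 to 2.51 and 1.51 to 2.53. What depended on the settings was the calls. With array quality weights limma called 3 of the 3 IFIT genes higher, and 52 genes higher and 41 lower in all, with 21 of 54 interferon targets higher, and replicate 3 of the vimentin-deficient arrays had a weight of 0.226. Leaving out 1 array gave 0 to 176 genes higher, 0 to 139 lower and 0 to 38 interferon targets higher. The upper ends were those without vimentin-deficient replicate 3. Lower calls were 1 without vimentin-deficient replicate 2, 0 without wild-type replicate 1, 2 or 3, and 5 when every probe set was tested, against 3. With the replicate number as a block 0 genes were lower and 0 of the 3 IFIT genes were called. Deviations of same-numbered arrays correlated at 0.434, -0.148 and 0.0357. With 3 arrays per genotype, and replicate 3 leading the vimentin-deficient deviations, these values cannot decide whether the numbers pair the samples. The median of the interferon targets lay between 0.49 and 0.89 without 1 array. The cause of these changes was not tested.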

Other observations

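The interferon-induced transmembrane genes, a separate antiviral family whose symbols also begin with Ifit, were not raised together. Ifitm3, which blocks virus entry, read 13.52, 13.45 and 13.70 on the vimentin-deficient arrays and 13.03, 13.26 and 13.11 on the wild-type arrays. It rose without vimentin-deficient replicate 3 (0.35 log2 units, SE 0.07, limma adjusted p = 0.0264), and had 0.43 (SE 0.09, limma adjusted p = 0.276) with 6 arrays. Ifitm6 rose in the same fit by 0.74 log2 units (SE 0.14, limma adjusted p = 0.0187) and read 12.01 on replicate 3, against 10.35 and 10.43 on its companions. With 6 arrays Ifitm6 had 1.27 (SE 0.44, limma adjusted p = 0.538), with no overlap between the groups. Ifitm1 and Ifitm2 had 0.06 (SE 0.08) and 0.05 (SE 0.11) with 6 arrays, and Ifitm5 and Ifitm7 had -0.05 (SE 0.04) and -0.09 (SE 0.05).

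When each array was set against its genotype mean, the genes most like the IFIT genes were other ones than over the 6 values. The 5 highest were Sphk2, Abhd15, Dleu2, Kansl3 and Lyz2, with r from 0.9988 to 0.9996 over 6 deviations. None of these 5 is on the interferon target list, whose highest members on this measure were Slfn5 (0.997), Rsad2 (0.995) and Irf7 (0.994). Sphk2, a sphingosine kinase gene, had a genotype difference of -0.11 (SE 0.14) and Lyz2, the lysozyme gene of macrophages, -0.06 (SE 0.08). These deviations are led by replicate 3, so a likeness of this kind describes that array more than the genotype.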
